A study of Homo sapiens with 4 samples.

Results

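The mRNAs of 9 giant cytoskeletal linker genes were examined for m6A (adenosine methylated at the N6 position) in cells of the human bronchial epithelial line 16-HBE. The genes were the spectraplakins MACF1 and DST, the plakins DSP, PLEC and EPPK1, the dystrophin relative UTRN, the nesprins SYNE1 and SYNE2, and AHNAK. Members were the listed m6A intervals that overlapped the window of one of these genes (hg19) on its strand. There were 99 of them among 13691 intervals in cells with METTL3 knockdown, and 59 among 11038 intervals in cells without it. Of the 9 genes, 8 had intervals in both lists and EPPK1 in neither.

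Both conditions had received 5% cigarette smoke extract (CSE) for 24 h. In the first, Mettl3 had been knocked down with siRNA, and the cells of the second are labelled WT. No control siRNA and no smoke-free condition is named in the labels, so METTL3 knockdown and the transfection itself cannot be told apart. Each condition had an m6A immunoprecipitation (IP) and an input library of poly(A) RNA, and each was represented by 1 list of intervals, although the design names 3 replicates. No value therefore has a replicate spread, no test between the conditions was possible, and the 95% intervals given for shares and ratios (Wilson limits) cover counting error only. The lists hold no expression values. Hence neither the METTL3 transcript nor markers of bronchial epithelium could be checked, and fewer molecules of an mRNA, fewer cells making it and less m6A on it cannot be told apart.

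METTL3 carries the methyltransferase activity of the nuclear m6A writer complex, which prefers a GGAC core. In mammalian mRNAs the mark is known to gather in last exons, near stop codons and in unusually long inner exons, while exon junction complexes keep it low in short inner exons. The linker genes offer both kinds of exon in one transcript. Plakins tie intermediate filaments, actin and microtubules to junctions, and nesprins tie the cytoskeleton to the nuclear envelope. The spectrin-like rods of MACF1, DST, UTRN and the nesprins are encoded by long series of mostly short exons, whereas EPPK1 and AHNAK have few exons and 1 giant coding exon each.

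Almost all listed intervals were whole annotated exons. Interval lengths and the distances between intervals were laid against the exon lengths and distances of the same genes in GENCODE 29, an annotation of another build, so that no position was carried over. Of 228 borders of the 114 distinct intervals, 213 fell on exon borders at 1 spacing per gene, and the next best spacing of each gene accounted for 19. Both borders matched for 101 of the 114 intervals, 1 border for 11, and the other 2 overlapped an annotated exon without a common border. All 21 UTRN intervals and all 3 PLEC intervals were whole exons. Where an interval is a whole exon its width is the length of the exon and not the extent of enrichment. In the transcript of each gene that took up most intervals, 95 of 598 exons (15.9%) were listed with knockdown and 54 (9.03%) in CSE. They comprised 45 exons listed in both conditions, 50 with knockdown only and 9 in CSE only. Exon numbers below refer to these transcripts.

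The sequences of 12 listed coding exons show what short listed exons of these genes look like, both shared and list-specific ones, taken from the GENCODE 29 transcripts and written 5′ to 3′ on the RNA strand with T for U. Capitals mark GGAC followed by A, C or T, a part of the methylation consensus. The first 6 are exons of equal length from MACF1 (chromosome 1, plus strand) and DST (chromosome 6, minus strand), and the others come from DSP and UTRN (chromosome 6, plus strand) and SYNE2 (chromosome 14, plus strand).
MACF1 exon 60: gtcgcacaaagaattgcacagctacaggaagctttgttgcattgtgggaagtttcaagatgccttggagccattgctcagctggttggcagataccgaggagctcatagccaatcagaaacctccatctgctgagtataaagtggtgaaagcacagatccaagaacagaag
DST exon 59: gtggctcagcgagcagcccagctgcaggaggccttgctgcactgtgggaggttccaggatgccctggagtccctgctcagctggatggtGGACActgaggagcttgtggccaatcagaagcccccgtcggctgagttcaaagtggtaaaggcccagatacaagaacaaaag
MACF1 exon 61: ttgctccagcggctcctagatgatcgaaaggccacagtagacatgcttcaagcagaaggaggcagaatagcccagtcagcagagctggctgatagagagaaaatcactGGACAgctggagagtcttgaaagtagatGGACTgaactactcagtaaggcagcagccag
DST exon 60: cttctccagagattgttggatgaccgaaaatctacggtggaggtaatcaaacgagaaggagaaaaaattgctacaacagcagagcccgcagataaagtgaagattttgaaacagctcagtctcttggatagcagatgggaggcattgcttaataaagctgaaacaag
MACF1 exon 67: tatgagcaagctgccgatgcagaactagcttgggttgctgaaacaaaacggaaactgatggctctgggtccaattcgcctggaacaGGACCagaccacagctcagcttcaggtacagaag
DST exon 65: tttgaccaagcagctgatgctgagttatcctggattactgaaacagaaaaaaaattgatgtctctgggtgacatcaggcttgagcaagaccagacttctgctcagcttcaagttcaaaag
DSP exon 15: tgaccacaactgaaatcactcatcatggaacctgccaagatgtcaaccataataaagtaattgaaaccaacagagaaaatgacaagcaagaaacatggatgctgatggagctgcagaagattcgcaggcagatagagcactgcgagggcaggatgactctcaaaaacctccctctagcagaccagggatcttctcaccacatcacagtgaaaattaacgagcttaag
DSP exon 12: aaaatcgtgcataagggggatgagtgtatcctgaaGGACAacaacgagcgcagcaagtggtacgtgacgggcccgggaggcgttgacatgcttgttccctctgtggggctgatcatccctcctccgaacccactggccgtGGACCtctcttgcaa
DSP exon 21: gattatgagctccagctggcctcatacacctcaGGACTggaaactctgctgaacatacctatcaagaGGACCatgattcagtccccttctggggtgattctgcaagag
UTRN exon 25: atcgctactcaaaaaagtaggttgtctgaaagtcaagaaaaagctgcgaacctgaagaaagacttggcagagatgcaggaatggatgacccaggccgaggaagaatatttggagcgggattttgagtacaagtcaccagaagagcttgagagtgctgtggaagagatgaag
UTRN exon 26: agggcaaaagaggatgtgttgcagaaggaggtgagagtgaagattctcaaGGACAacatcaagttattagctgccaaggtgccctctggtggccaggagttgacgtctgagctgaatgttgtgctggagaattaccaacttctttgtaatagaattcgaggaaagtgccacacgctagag
SYNE2 exon 98: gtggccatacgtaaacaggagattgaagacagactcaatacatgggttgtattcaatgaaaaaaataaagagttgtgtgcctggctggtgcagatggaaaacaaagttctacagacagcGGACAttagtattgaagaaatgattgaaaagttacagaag

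Of these 12, MACF1 exon 60, DST exon 65, DSP exon 15, UTRN exon 25 and SYNE2 exon 98 were listed in both conditions. MACF1 exons 61 and 67, DST exons 59 and 60, DSP exon 21 and UTRN exon 26 were listed with knockdown only, and DSP exon 12 in CSE only. These exons were picked after the values were seen, and the motif is counted over all exons further on.

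More exons of the linker genes were listed with METTL3 knockdown. The 99 intervals of the knockdown list, set against 59 of the CSE list, gave a ratio of 1.68 (95% interval 1.22 to 2.31), beside 1.24 (1.21 to 1.27) over the whole lists. The covered length was 72.5 kb with knockdown and 46 kb in CSE, a ratio of 1.58, beside 1.09 over the whole lists. Without the AHNAK window the ratio of covered length was 1.19. Of the knockdown intervals, 50 shared not even 1 base with a CSE interval, a share of 50.5% (40.8 to 60.1), against a background of 35.5% in the whole knockdown list. Of the CSE intervals, 10 had no knockdown overlap, a share of 16.9% (9.48 to 28.5), against a background of 19.9% in the whole CSE list. The CSE-only share was thus near its background, and the knockdown-only share above it. Of the 49 overlapping intervals, 44 had identical borders in both lists. The genes were proposed with earlier results of these lists in view, and so count as selected on the numbers of listed intervals. A gain of short intervals in the MACF1 window was among those results. The excess of the 9 windows over the whole lists therefore describes these windows and supports nothing further.

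In the linker genes, as in the whole lists, the larger ratio was that of short intervals. There were 75 intervals of up to 300 nt with knockdown, against 37 in CSE, for a ratio of 2.03 (1.37 to 3), beside 1.42 over the whole lists. Of wider intervals there were 24 with knockdown, against 22 in CSE, for a ratio of 1.09 (0.616 to 1.93), beside 1.05 over the whole lists. Both whole-list ratios lay within the limits of the 9 windows. Of the short intervals, 46 were knockdown-only (61.3%), where the background for that width is 42.2%, and 8 were CSE-only (21.6%), where it is 17.7%. Of the wide intervals, 4 were knockdown-only (16.7%, background 26%) and 2 were CSE-only (9.09%, background 22.3%). Knockdown-only intervals had a median width of 171 nt (157 to 183), beside 175 nt in the whole list. Intervals overlapping between the lists had a median of 227 nt in both.

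**Figure D1:**
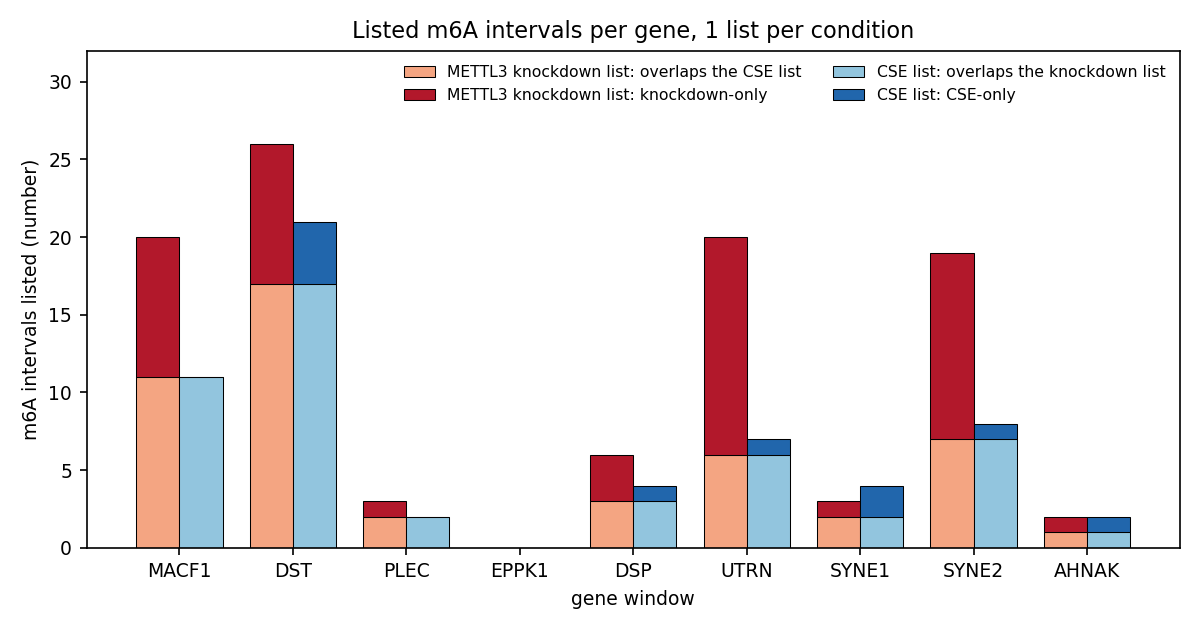
Number of listed m6A intervals in each gene window, with the METTL3 knockdown list at the left and the CSE list at the right of each pair, and list-specific intervals stacked darker on top of overlapping ones. UTRN and SYNE2 carry 14 and 12 knockdown-only intervals, DST has 4 CSE-only ones, and EPPK1 has none in either list. Over the whole lists 35.5% of knockdown intervals and 19.9% of CSE intervals were list-specific.

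An interval missing from a list is not known to be missing from the calls. Interval names carry a running number that rises along each chromosome over both strands, and many numbers are not listed. For all 50 knockdown-only intervals at least 1 CSE number was unlisted between the CSE intervals on either side, with a median of 6, and in the whole knockdown list this held for 96.2%. If the numbers count calls, an unlisted CSE call there cannot be told apart from none. Of the 10 CSE-only intervals, 7 had an unlisted knockdown number beside them, against 91.8% in the whole CSE list. The other 3 had none: DSP exon 12, DST exon 30 and UTRN exon 69. Only if the numbers count calls, 1 per interval, does this leave no room for an unlisted knockdown call. Of the 50 knockdown-only intervals, 36 lay within 10000 nt of a CSE interval of the same strand and 14 farther away. The median distance was 4664 nt and the largest 155217 nt. Distances were not computed over the whole lists, so these have no background.

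MACF1 crosslinks actin filaments and microtubules. Its window held 20 knockdown and 11 CSE intervals, a ratio of 1.82 (0.885 to 3.74), and none was CSE-only. In its 101-exon transcript 18 exons were listed with knockdown and 9 in CSE, and all of them lay between exons 43 and 73. No exon of the first 42 and none after exon 73 was listed in either condition. The 9 knockdown-only exons were 43, 55, 61, 63, 65, 67, 69, 71 and 72. The last 7 of these lay among exons listed in neither condition, in a stretch between exon 60 and exon 73, both of which were listed in both conditions. In that stretch 6 CSE numbers were unlisted between the flanking CSE intervals.

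The highest score in the MACF1 window belonged in both lists to the widest interval. It was chr1:39875176-39880434 (5259 nt) with knockdown and chr1:39875176-39880342 (5167 nt) in CSE. The authors' scores, which rank intervals within a list, were 3100 with knockdown and 1132 in CSE. This interval lies on no exon of the 101-exon transcript. It overlaps the 4975 nt first exon of a 6-exon MACF1 transcript, of which 4212 nt are coding. The next scores belonged to exon 57 (496 nt), at 1819.6 with knockdown and 946 in CSE, and to exon 58 (1472 nt), at 1628 with knockdown and 514 in CSE. The highest of the knockdown-only intervals was exon 43 (chr1:39816457-39816690), with a score of 385 at the 58.1th percentile of its list. The one wider than 300 nt was exon 63 (chr1:39893633-39893959, 327 nt), with a score of 164. A further interval of 307 nt, listed in both conditions with scores of 319 with knockdown and 96.5 in CSE, was the first exon of a 32-exon transcript.

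DST, which encodes the dystonins and in epidermis the hemidesmosomal protein BPAG1e, had the most intervals of the 9 genes. The knockdown list had 26 and the CSE list 21, a ratio of 1.24 (0.702 to 2.18), the same as that of the whole lists. Of the 26, 9 were knockdown-only, and of the 21, 4 were CSE-only, near the backgrounds of 35.5% and 19.9% in the whole lists. Listed exons reached over most of the 98-exon transcript, from exon 11 to exon 98, but the list-specific ones were unevenly placed. The 9 knockdown-only exons were 11, 35, 59, 60, 63, 71, 74, 80 and 87, of which 7 lay after exon 58. The CSE-only exons of that transcript were 26, 30 and 45. The fourth CSE-only interval, chr6:56650569-56650677, is a 109 nt noncoding first exon of a 6-exon transcript. Its score of 695 was the highest of any CSE-only interval in the windows, and 11 knockdown numbers were unlisted around it. Its nearest listed knockdown interval on the strand lay 139777 nt away.

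Scores of 3100 were reached in DST by a 2842 nt interval in both lists (chr6:56479375-56482216). It shares 1 border with the last exon, of 2843 nt, of a 24-exon DST transcript, and lies outside every exon of the 98-exon transcript. With knockdown the same score was reached by exon 56 (496 nt) and by exon 43 (267 nt), which scored 1102 and 1560.2 in CSE. The widest DST interval lay on exon 36, an inner coding exon of 5508 nt. With knockdown the whole exon was listed, with a score of 323 (chr6:56468635-56474142), and in CSE its last 4142 nt in transcript order, with a score of 154 (chr6:56468635-56472776). MACF1 exon 37, an inner coding exon of 5451 nt, was listed in neither condition. Among knockdown-only exons of DST the highest score was 445, for exon 60.

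MACF1 and DST are paralogues, and many of their exons have kept the same length. In transcript order 68 pairs of exons of at least 60 nt had equal length and at least 50% identity without gaps, with a median of 66%. Of these pairs, 7 were listed in both genes with knockdown, where 12 of the MACF1 exons and 16 of the DST exons were listed. In CSE 1 pair was listed in both genes, where 5 of the MACF1 exons and 11 of the DST exons were listed. Among the 68, the pair listed in both genes and both conditions was MACF1 exon 57 with DST exon 56, of 496 nt and 54% identity. The next exons, MACF1 exon 58 and DST exon 57, both of 1472 nt, were also listed in both conditions. They were not among the 68 pairs. The 2 that were knockdown-only in both genes were MACF1 exon 61 with DST exon 60 (167 nt, 59.9% identity) and MACF1 exon 65 with DST exon 63 (242 nt, 55.4%). The closest pair among the 7 was MACF1 exon 60 with DST exon 59 (171 nt, 77.2%). The MACF1 exon was listed in both conditions, with scores of 433 with knockdown and 106 in CSE, whereas the DST exon was knockdown-only with a score of 70.4. MACF1 exon 67 and DST exon 65 (120 nt, 73.3%) were the other way round. The MACF1 exon was knockdown-only with a score of 88.1, and the DST exon scored 596 with knockdown and 185 in CSE. Of the 3 pairs printed above, DST exon 59, MACF1 exon 61 and MACF1 exon 67 held the motif, and their partners did not.

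**Figure D2:**
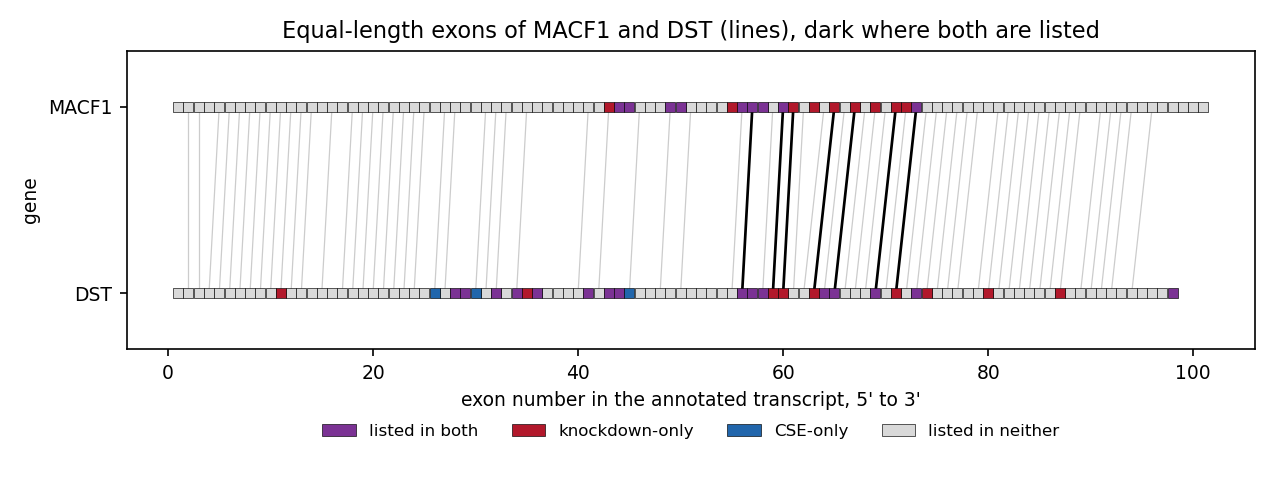
Exons of MACF1 (top) and DST (bottom) by exon number, coloured by whether they were listed in both conditions, with METTL3 knockdown only, in CSE only or in neither. Lines join the 68 exon pairs of equal length and at least 50% identity, dark where both are listed in either condition. The 7 dark lines all join exons 57 to 73 of MACF1 to exons 56 to 71 of DST.

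The nesprins bind actin or other linkers at one end and the outer nuclear membrane at the other. SYNE2 had 19 knockdown and 8 CSE intervals, a ratio of 2.38 (1.06 to 5.31), beside 1.24 over the whole lists. Of the 19, 12 were knockdown-only, and of the 8, 1 was CSE-only, beside backgrounds of 35.5% and 19.9% in the whole lists. SYNE1 had 3 knockdown and 4 CSE intervals, a ratio of 0.75 (0.188 to 2.99), 1 of them knockdown-only and 2 CSE-only. With so few intervals the ratio of SYNE1 has limits that hold both directions. Its order turned among the upper 50% of each list by score, and at a score of at least 200, where there were 2 intervals with knockdown and 1 in CSE under each. The difference between the nesprins was not tested.

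In SYNE2 the widest interval was exon 48, an inner coding exon of 2101 nt, listed in both conditions with scores of 637 with knockdown and 553 in CSE. The highest score with knockdown, 2118, belonged to the 159 nt exon 98, which scored 489 in CSE. Exon 98 was flanked by exon 97, also listed in both conditions, and by exon 99, which was knockdown-only. The knockdown-only exons were 21, 24, 32, 45, 56, 61, 65, 68, 84, 99, 104 and 105 of 116. Their highest score was 372, for exon 105 (195 nt), and 1 was wider than 300 nt, exon 45 (342 nt, chr14:64497734-64498075) with a score of 222. The CSE-only exon was 41 (292 nt), with a score of 92.3. The last exon, of 1114 nt, was listed in neither condition.

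In SYNE1, with 146 exons, the inner coding exon 78 of 2161 nt was listed in both conditions, with scores of 493 with knockdown and 446 in CSE. The last exon was listed in both, as 963 nt with a score of 420 under knockdown and as 993 nt with a score of 123 in CSE. The CSE-only exons were 41 (629 nt, chr6:152737522-152738150, score 159) and 70 (327 nt, chr6:152673162-152673488, score 60.6). The knockdown-only exon was the neighbouring exon 69 (171 nt), with a score of 61.2. SYNE1 and SYNE2 had 21 pairs of equal-length exons by the rule used for MACF1 and DST. None of them was listed in SYNE1, while 5 of the SYNE2 partners were listed with knockdown and 2 in CSE.

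UTRN encodes utrophin, which joins actin to the dystroglycan complex at the membrane. Its ratio was the highest, at 2.86 (1.24 to 6.59), with 20 intervals with knockdown and 7 in CSE. Over the whole lists the ratio was 1.24, and 1.42 for intervals of up to 300 nt. Of the 20, 14 were knockdown-only, and of the 7, 1 was CSE-only, beside backgrounds of 42.2% and 17.7% for intervals of up to 300 nt. All UTRN intervals were short, from 66 to 241 nt with knockdown and from 102 to 173 nt in CSE. In the 74-exon transcript 19 of the 21 listed exons lay within exons 8 to 18, 24 to 27, 49 to 52 and 68 to 70, and the others were exons 37 and 40. The last exon, of 2046 nt with 9 coding nt, was listed in neither condition. Scores were low within both lists, with a median of 141 with knockdown, at the 31.3th percentile, and of 58.5 in CSE, at the 6.12th percentile. The highest was that of exon 25 with knockdown, at 1072, which scored 79.1 in CSE. The highest in CSE, 149, belonged to exon 17, which scored 303 with knockdown. Among knockdown-only exons the highest score was 442, for exon 70 (chr6:145157437-145157677). The CSE-only exon 69 (chr6:145156916-145157074), with a score of 58.5, lay 362 nt upstream of it and no knockdown number was unlisted there.

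**Figure D3:**
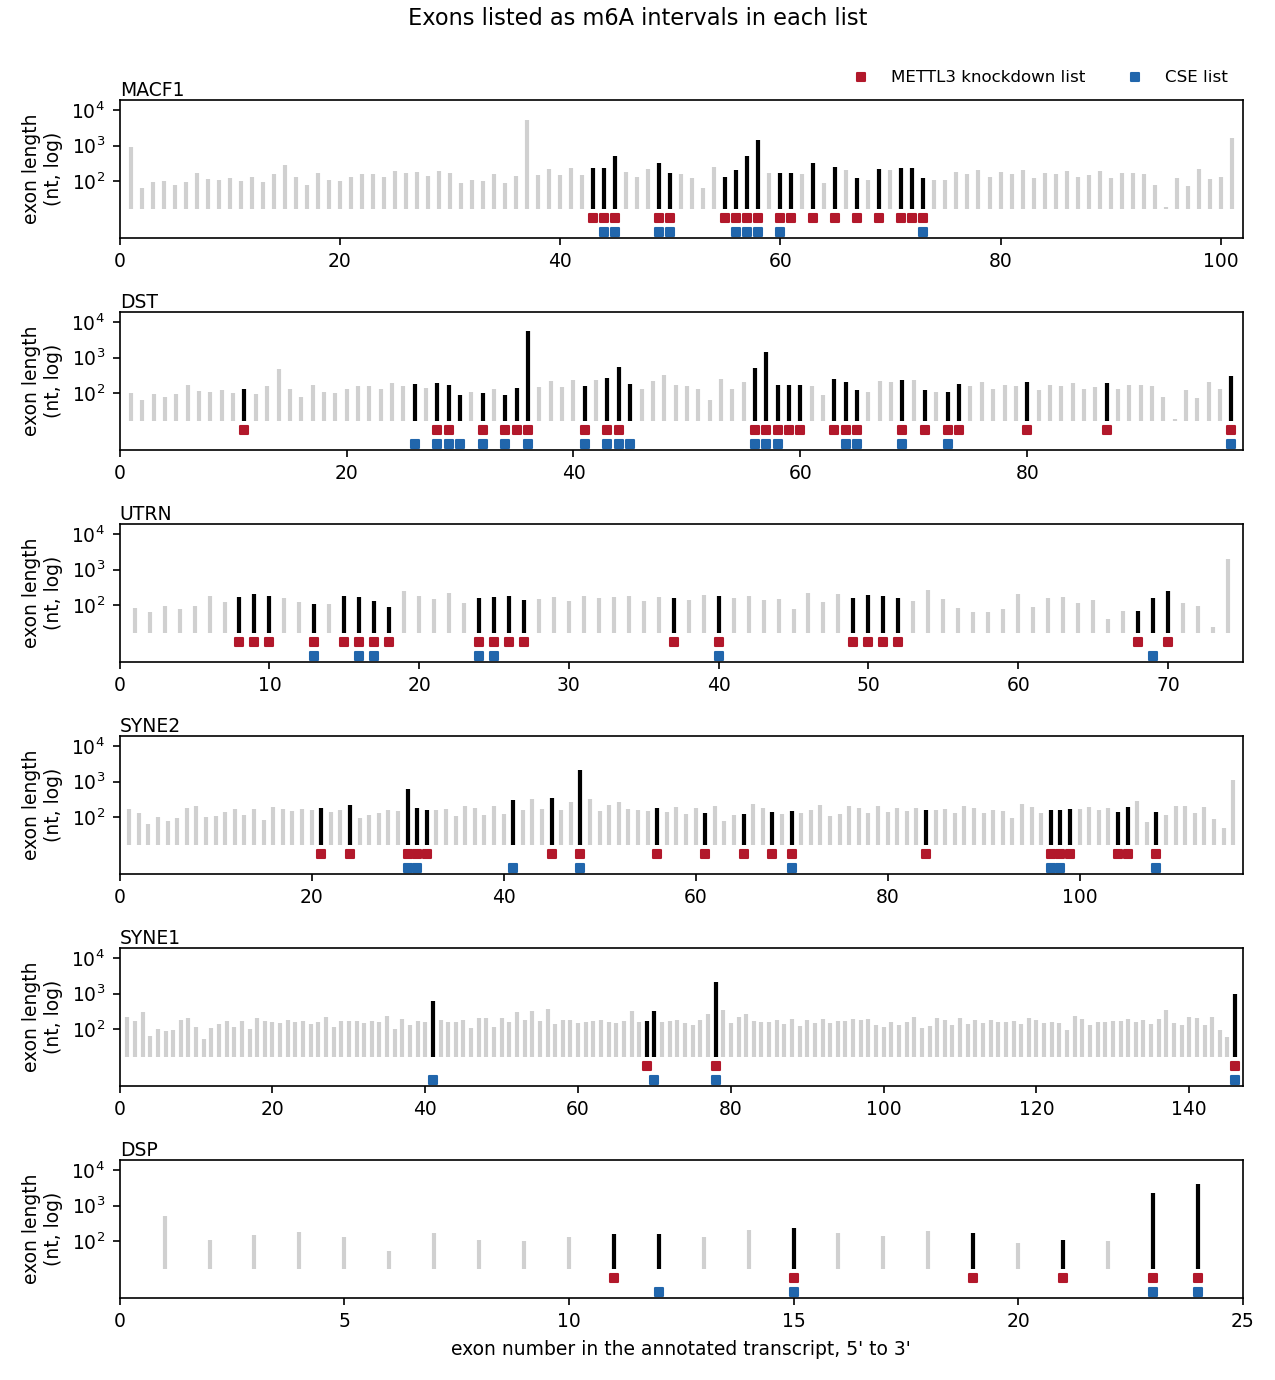
Exons of 6 genes in transcript order, with exon length in nt on a log axis, black where the exon was listed in either condition. Squares below mark listing in the METTL3 knockdown list (upper row) and the CSE list (lower row). Long inner exons such as DST exons 36 and 57 and SYNE1 exon 78 are marked in both rows, while most squares in the upper row alone stand under exons of up to 300 nt, such as the UTRN exons 49 to 52. Those of MACF1 exon 63 (327 nt) and SYNE2 exon 45 (342 nt) do not.

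DSP encodes desmoplakin, which anchors keratin filaments at desmosomes. It had 6 intervals with knockdown and 4 in CSE. Its long exons 23 (2295 nt, chr6:7579508-7581802) and 24, the last exon, scored 3100 in both lists. Exon 24 was listed as 3953 nt with knockdown and as 3960 nt in CSE, out of 4076 nt. Exon 15 (227 nt) scored 3100 with knockdown and 1492 in CSE. Its knockdown-only exon 11 (153 nt, chr6:7568670-7568822) scored 661, at the 70.5th percentile of its list. Knockdown-only exon 21 (108 nt, chr6:7578012-7578119) scored 793, at the 74th percentile, and exon 19 (163 nt) scored 60.2. Between the CSE intervals around exons 19 and 21 a single number was unlisted. If the numbers count calls, 1 per interval, at most 1 of the 2 exons could have an unlisted CSE call. The CSE-only exon 12 (155 nt, chr6:7569419-7569573) scored 69.3.

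PLEC encodes plectin, a linker of intermediate filaments to hemidesmosomes. It had 3 intervals with knockdown and 2 in CSE. The last exon (7249 nt, chr8:144989315-144996563) was listed in both conditions, with scores of 1137 with knockdown and 3100 in CSE. PLEC exon 31, of 3381 nt, was listed in neither. A first exon of 127 nt was listed in both, with scores of 86.8 with knockdown and 95.7 in CSE. Another first exon of 693 nt (chr8:145024352-145025044) was knockdown-only with a score of 169. EPPK1 encodes epiplakin, which consists of plakin repeats. Its window held 0 intervals in either list, and its long exon, of 15975 nt in GENCODE 29, holds 90 matches to the motif defined above. That window spans 14 kb of hg19, which is less than this exon, so the exon as annotated in GENCODE 29 was not searched in full.

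AHNAK encodes a scaffold protein of giant size beneath the plasma membrane. It had 2 intervals with knockdown and 2 in CSE, and only 1, in the first exon, was common to both, with scores of 1305 with knockdown and 180 in CSE. The knockdown-only interval was the widest of all 9 windows, 18173 nt (chr11:62283374-62301546), with a score of 937 at the 76.7th percentile of its list. It shares 1 border with the last exon of 18170 nt, which holds 17331 coding nt and 115 matches to the motif. The CSE-only interval was exon 4 (188 nt, chr11:62302475-62302662), 928 nt away, with a score of 195. Around the 18173 nt interval 3 CSE numbers were unlisted.

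Listing in both conditions was more frequent among long exons than among short ones. Of 15 exons over 1000 nt, 8 were listed in both conditions, 1 with knockdown only and 0 in CSE only, and 6 in neither. Of 558 exons of up to 300 nt, 30 were listed in both, 46 with knockdown only, 7 in CSE only and 475 in neither. These are exon lengths in the transcript used for each gene, and some listed intervals were longer. DST exon 98 (300 nt) carried intervals of 1237 nt with knockdown and 1142 nt in CSE. In both lists DST exon 32 (99 nt) carried 256 nt, SYNE2 exon 70 (142 nt) 237 nt and SYNE2 exon 108 (140 nt) 434 nt. The 256 nt and 237 nt intervals are whole last exons of other transcripts, with 22 and 4 exons, although counted here as short inner exons. Of the 9 last exons, 4 were listed in both and 1 with knockdown only, while those of MACF1, UTRN, SYNE2 and EPPK1 were in neither list.

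The motif was counted in every exon of the 9 transcripts, also where the listed interval was longer than the exon. GGAC followed by A, C or T, whose matches cannot overlap one another, occurred in 258 of all 598 exons (43.1%), at 3.84 per kb, and at 2.36 per kb on the opposite strand. It was present in 27 of 45 exons listed in both conditions (60%), in 25 of 50 knockdown-only exons (50%), in 5 of 9 CSE-only exons (55.6%) and in 201 of 494 exons listed in neither (40.7%). Longer exons hold more of any motif. Among exons of 60 to 120 nt the motif was in 2 of 5 listed in both (40%), 4 of 5 knockdown-only (80%), 0 of 1 CSE-only and 37 of 129 in neither (28.7%). At 121 to 200 nt it was in 8 of 19 listed in both (42.1%), 11 of 31 knockdown-only (35.5%), 3 of 5 CSE-only (60%) and 121 of 281 in neither (43.1%). At 201 to 300 nt it was in 5 of 6 listed in both (83.3%), 7 of 10 knockdown-only (70%), 1 of 1 CSE-only and 27 of 56 in neither (48.2%). Set against exons in neither list, knockdown-only exons thus had the higher share in the shortest and the longest of these classes and the lower share in the middle one, which held most of them. A match is not a methylated site.

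The authors' score placed the knockdown-only intervals low in their list. Their median score was 163 (median percentile 35.3), beside 456 (62.2) for overlapping intervals of the knockdown list, and 12 of 50 (24%) were in the upper 50% of the list. Over the whole knockdown list 18.8% of knockdown-only intervals were there. Overlapping intervals of the windows held different places in the lists. With knockdown 73.5% of the 49 were in the upper 50%, beside 67.2% of all overlapping intervals, and in CSE 34.7%, beside 56.3%. Of the 10 CSE-only intervals 1 was in the upper 50% (10%), beside 24.5% in the whole CSE list. Places in lists of different length are not changes of m6A.

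**Figure D4:**
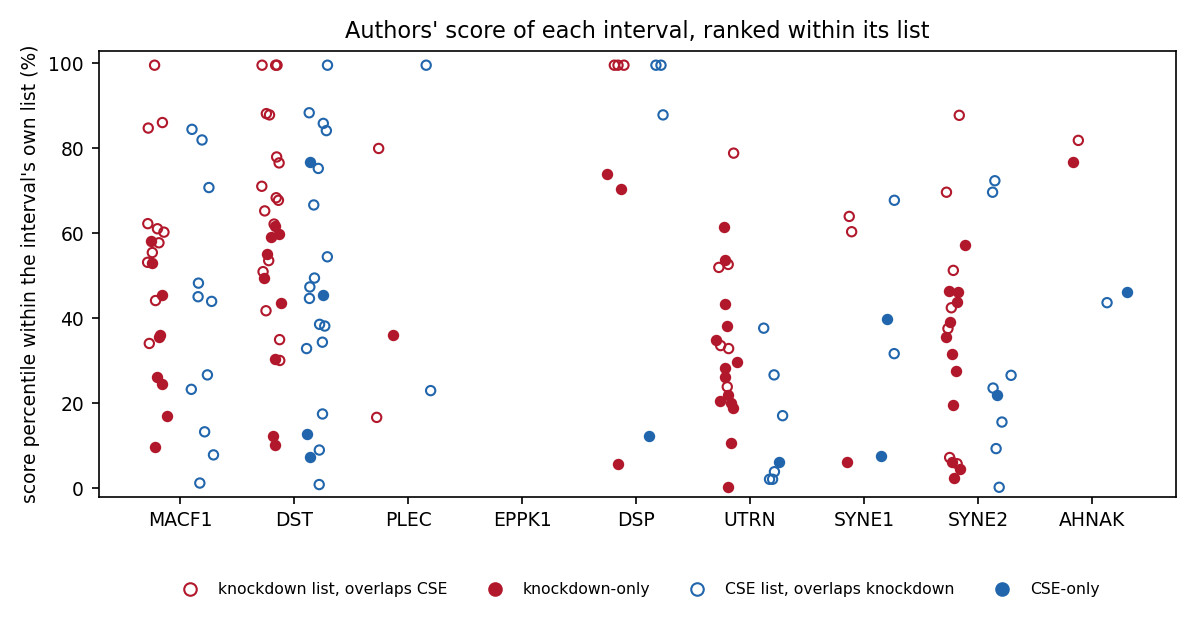
Percentile of each interval's score within its own list, by gene, METTL3 knockdown at the left and CSE at the right of each gene, with filled points for list-specific intervals and horizontal jitter only for visibility. Filled points of the knockdown list reach the 76.7th percentile at most, and the CSE points of UTRN all lie below the 40th percentile.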

How the data were processed

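MeRIP-seq was done by the submitters on poly(A) RNA with an m6A antibody and directional libraries, per the labels' protocols. The submitters' processing notes name HISAT2 2.0.4, an aligner, and hg19. Each deposited interval has a name with the prefix MACS (a peak caller), for which no version or settings are given, and pooling of replicates is not described in the sources used here. The score, the authors' own value per deposited interval, has no stated scale, runs from 50.02 upwards and piles up at 3100. It was used to rank intervals within a list, to choose intervals to name, and as a fixed minimum in some alternatives. Scores printed for both lists are the deposited values and are not on a known common scale. Over the whole lists overlapping intervals had a median score of 506.7 with knockdown and 275.3 in CSE. Read depths were not used here.

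Windows were compared with both lists by position and strand, and 1 bp of overlap counted as overlapping. Distinct intervals were matched to exons of GENCODE 29 (GRCh38) by length and spacing, never by converted position. An exon of a transcript counted as listed where the interval covered at least 50% of it, or it at least 50% of the interval. Shares have Wilson 95% intervals, medians exact order-statistic intervals. Overlap and exon matching were tested on simulated data. Python 3.11.15, pandas 2.3.3 and scipy 1.17.1 were used.

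The genes and windows were chosen with earlier results of these data known. In each gene the text names the widest and highest-scoring intervals, the highest-scoring list-specific ones, and all list-specific ones over 300 nt or with a score of at least 500. Exon numbers, exon pairs and printed exons were chosen after the values were seen. Alternatives were overlap rules, strand, score minimums, window containment and leaving out each gene. Genes beside these 9 have no hg19 window here and were not analysed.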

Additional observations from a re-analysis of the deposited data

How the results depend on the processing

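The alternatives gave 185 recomputed values, each being 1 result under 1 setting. Of these, 72 were gene counts and 36 differences of gene counts. Gene counts and their differences were allowed 1.5 times the main value, and covered length the limits of the number ratio. Window containment and leaving out EPPK1 changed no value, so the tally is no measure of stability. Of the 185 recomputed values, 135 kept to these limits or to the counting interval, 48 moved further and 2 changed direction. Both were SYNE1, whose difference in interval number, knockdown minus CSE, was -1 as reported and 1 among the 50% best-scoring intervals as well as at a score of at least 200. Differences per gene, and counting whole exons only, were added after seeing the data. For the score alternatives both lists were cut before overlap was counted. An interval whose partner scored below the cut therefore counted as without overlap. With the 50% best-scoring intervals of each list, the ratio of interval numbers was 2.67. Of the 48 knockdown intervals, 32 (66.7%, median width 187.5 nt) had no overlap in the cut CSE list, but only 12 had none in the uncut CSE list. Median widths of all intervals were 229.5 nt with knockdown and 984 nt in CSE. At a score of at least 200 the ratio was 2.76, with median widths of 213 nt with knockdown and 496 nt in CSE. The shares without overlap in the other list, cut alike, were 65.5% with knockdown and 4.76% in CSE. No whole-list values were computed under these cuts, so the backgrounds given above do not apply to them. Scores of the lists differ in level, so a common minimum is not equally strict in both. Leaving out each gene gave ratios of interval numbers from 1.52 to 1.92 and knockdown-only shares from 45.6% to 56.2%. The ratio of covered length was 1.19 without AHNAK, whose 18173 nt interval decides it. No paired analysis was possible because each condition had 1 list.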
